A study of Mus musculus with 3 samples.

Results

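Peritoneal macrophages of mice given 35 nmol chromate together with the phorbol ester TPA were set against those of mice given TPA alone, across all genes of a whole-genome mouse array. The comparison used 2 of the 3 arrays analysed here, 1 for each group. A gene entered it where its probe was flagged well above background on both arrays and not saturated, which 12722 of the 14556 genes seen on at least 1 of the 3 arrays were. Because a group is 1 array, differences are described by size and no test was made.

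The mice were 8-week-old male Swiss albino animals in groups of 10. Every mouse of every group first received 125 µg lipopolysaccharide (LPS), a bacterial endotoxin, by intraperitoneal injection on day 0 in 1 ml saline. On day 4 the controls received 100 ng TPA in 0.5 ml, and the treated mice the same TPA with the chromate, so LPS and TPA are shared by both sides and no array shows untreated cells. The sample labels give the dose as 35 nmole Cr(VI), while the protocols give 35 nmol potassium dichromate, and the labels do not settle which. The peritoneal cavity was washed out 4 days after the chromate, into a medium that held the growth factor GM-CSF. Whether an array carried RNA of 1 mouse or of a pool is also not settled by the labels. The remaining array, from mice given 70 nmol with TPA, is quoted beside some values. Its comparison shares the TPA-only array with this one, so the 2 sets of differences are not independent. Lipoic acid, which the study's text also names, was given to none of the groups on these arrays.

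Chromate, hexavalent chromium, enters cells through anion transporters and is reduced inside them, which leaves DNA adducts and oxidised cell components, and it is a recognised carcinogen. TPA activates protein kinase C and is the classical tumour promoter of the skin. The peritoneal cavity holds long-lived resident macrophages, defined by the transcription factor Gata6, and monocyte-derived macrophages that enter during inflammation, beside B cells, T cells, mast cells and eosinophils.

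Levels are log2 processed signals minus the 75th percentile of the array, so 0 is that percentile and a difference of 1 is 2-fold. The differences had quartiles of -0.10 and 0.16 and a median of 0.04. The SD over genes was 0.30, and 93.0% of genes lay within 0.5 of 0. The scanner's own error of a difference had a median of 0.20, and 2 probes of the same gene differed with a median SD of 0.11 over 3145 genes. Both errors are technical, and the spread between mice is unknown. All arrays sat on 1 slide and were scanned together, so position on the slide and group cannot be told apart. Between 45.1% and 49.1% of 41174 probes were well above background. Markers of all macrophages were present as labelled: all 20, among them Adgre1, Csf1r and Cd68, were above background on every array. Adgre1 encodes F4/80 and stood at 7.67 with TPA only and at 7.71 at 35 nmol.

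The threshold of 2-fold was passed upwards by 143 genes, 1.12% of those measured, and downwards by 39, 0.307%. The members of the liver list, transcripts known mainly from liver, were the largest group among them. Of 92 measured liver genes 56 were at least 2-fold higher at 35 nmol and 1, the tyrosine-breakdown enzyme Hpd, was lower by 1.05. Their median difference was 1.27, against 0.04 over all genes. Red cell transcripts went the other way, with 5 of 8 at least 2-fold lower and a median of -2.12. Both lists were therefore set apart. The 12622 remaining genes held 87 that were higher (0.689%) and 33 that were lower (0.261%). As smaller measures, used for lists below, 3.49% of these genes were higher by at least 0.5 and 2.92% were lower by as much (4.02% and 2.96% of all measured genes), and 49.7% exceeded the median of all genes.

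**Figure D1:**
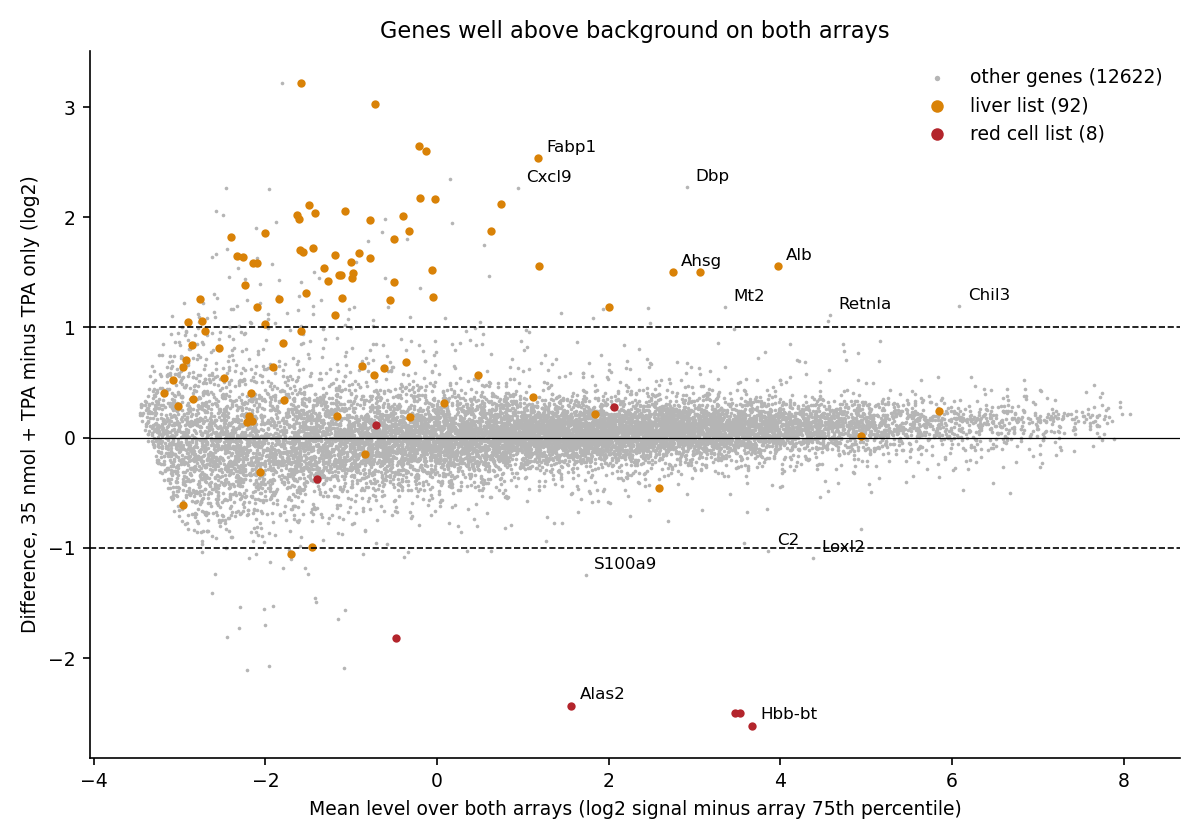
Each point is a gene well above background on both arrays. The horizontal axis is its mean level over the 2 arrays and the vertical axis the difference, 35 nmol with TPA minus TPA only, both in log2. Dashed lines mark 2-fold. Most of the 92 liver genes lie above the upper line, and the red cell genes Hbb-bt and Alas2 lie below -2.

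The liver transcripts were detected on the TPA-only array and read higher at 35 nmol. From which cells this RNA came was not tested. Alb, which encodes serum albumin, read 3.19 with TPA only, 4.75 at 35 nmol and -2.90 at 70 nmol. Ahsg, which encodes the plasma protein fetuin-A, read 2.00 and 3.50 on the first 2 arrays and was not above background at 70 nmol. Fabp1, the fatty acid carrier of liver cells, went from -0.09 to 2.44. The widest differences within the list were those of Akr1c6, a hydroxysteroid dehydrogenase (3.21), and Cyp2a5, a drug-metabolising cytochrome (3.02), whose second probe differed by 1.95. Serpina3k, a plasma protease inhibitor, differed by 2.64 and Apoa2, an apolipoprotein of HDL, by 2.60. In each of these genes the 35 nmol array was the highest of the 3 and the 70 nmol array the lowest, and only Alb was still above background there.

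Sorted by role, 31 of 41 measured plasma protein genes were at least 2-fold higher (median 1.5). Lipid carriers and enzymes, a group that includes Akr1c6, had 9 of 11 (median 1.67). Drug and steroid metabolism had 10 of 18 (median 1.17). Amino acid, sugar and urea metabolism had only 5 of 19 (median 0.64), with Hpd lower. Transport and transcription genes had 1 of 3 (median 0.84). Of the 239 list genes, 98 were above background with TPA only, 127 at 35 nmol and 35 at 70 nmol, and 103 on none. The mean level over the 92 measured members was -1.53, -0.37 and -3.67 on the 3 arrays, though 61 of them were not above background at 70 nmol. Several more genes outside the list are known mainly from liver and were also at least 2-fold higher. They were picked out after their values were seen, and every gene picked was a higher one. Rgn, a calcium-binding lactonase, was higher by 3.22. C4bp, a complement inhibitor, was higher by 2.05, and Cfi, complement factor I, by 1.96. None of these was above background at 70 nmol. Without 15 such genes, 72 genes outside the lists were higher. Orm1, Orm2 and Orm3, acute phase proteins also outside the list, were at least 2-fold lower (below). Members of the Serpina3, Mug, Mup and Cyp2 families resemble each other closely, so a probe may read more than 1 of them. The count of 56 was 33 with another background correction, normexp, and 42 with scaling on the spike-in probes.

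Among red cell genes, both adult globin loci were lower. Hbb-bt, a beta globin, read 4.97 with TPA only, 2.36 at 35 nmol and 3.66 at 70 nmol. Its other probes differed by -2.70 to -1.72. Hba-a1 and Hba-a2, near-identical alpha globins, were lower by 2.5 each, from 4.78 to 2.28 and from 4.72 to 2.22. Alas2, the first enzyme of red cell heme synthesis, was lower by 2.43, and Slc4a1, the red cell anion exchanger, by 1.82. The 3 others, Gfi1b, Tal1 and Tspo2, lay between -0.38 and 0.28. With the looser filter the list had 6 of 17 lower and 1 higher, with a median of -0.67. A second list, of 20 genes that red cells share with other cells, had a median of 0.01 with 19 members within 2-fold. The protocol states that red cells were removed before cells were counted. In RNA from a mixture, fewer cells of a type and less RNA per cell cannot be told apart.

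Among the brighter genes outside these lists, the upward differences were led by the eosinophil ribonuclease Rnase2a, the clock-controlled Dbp, the chemokine Cxcl9, the neutrophil-expressed Retnlg and the chemokine Cxcl10. Dimmer genes reached further, up to 3.22 in the liver gene Rgn. Most of the 87 higher genes were dim: in 66 the brighter array was below the median level of its well-above-background probes, and 39 had a control level within 1 of the lowest level called above background. Of the 33 lower genes 26 were dim in the same sense. The 25 genes plotted in each direction are those with the widest difference whose brighter array was at or above that median level and whose other probes differed the same way. Normexp left 22 of the 87 and 4 of the 33 beyond 2-fold, and spike-in scaling left 30 of the 87 and 33 of the 33. Scaling on the spike-in probes lowered the median of all differences by 0.42, so smaller positive values in the text turn negative under it and are to be read against the median of all genes. Of all genes past 2-fold 78.6% were higher, but 22.2% were with spike-in scaling and 51.7% with a looser filter that admits dimmer probes. Outside the liver and red cell lists these shares were 72.5%, 10.9% and 47.8%.

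**Figure D2:**
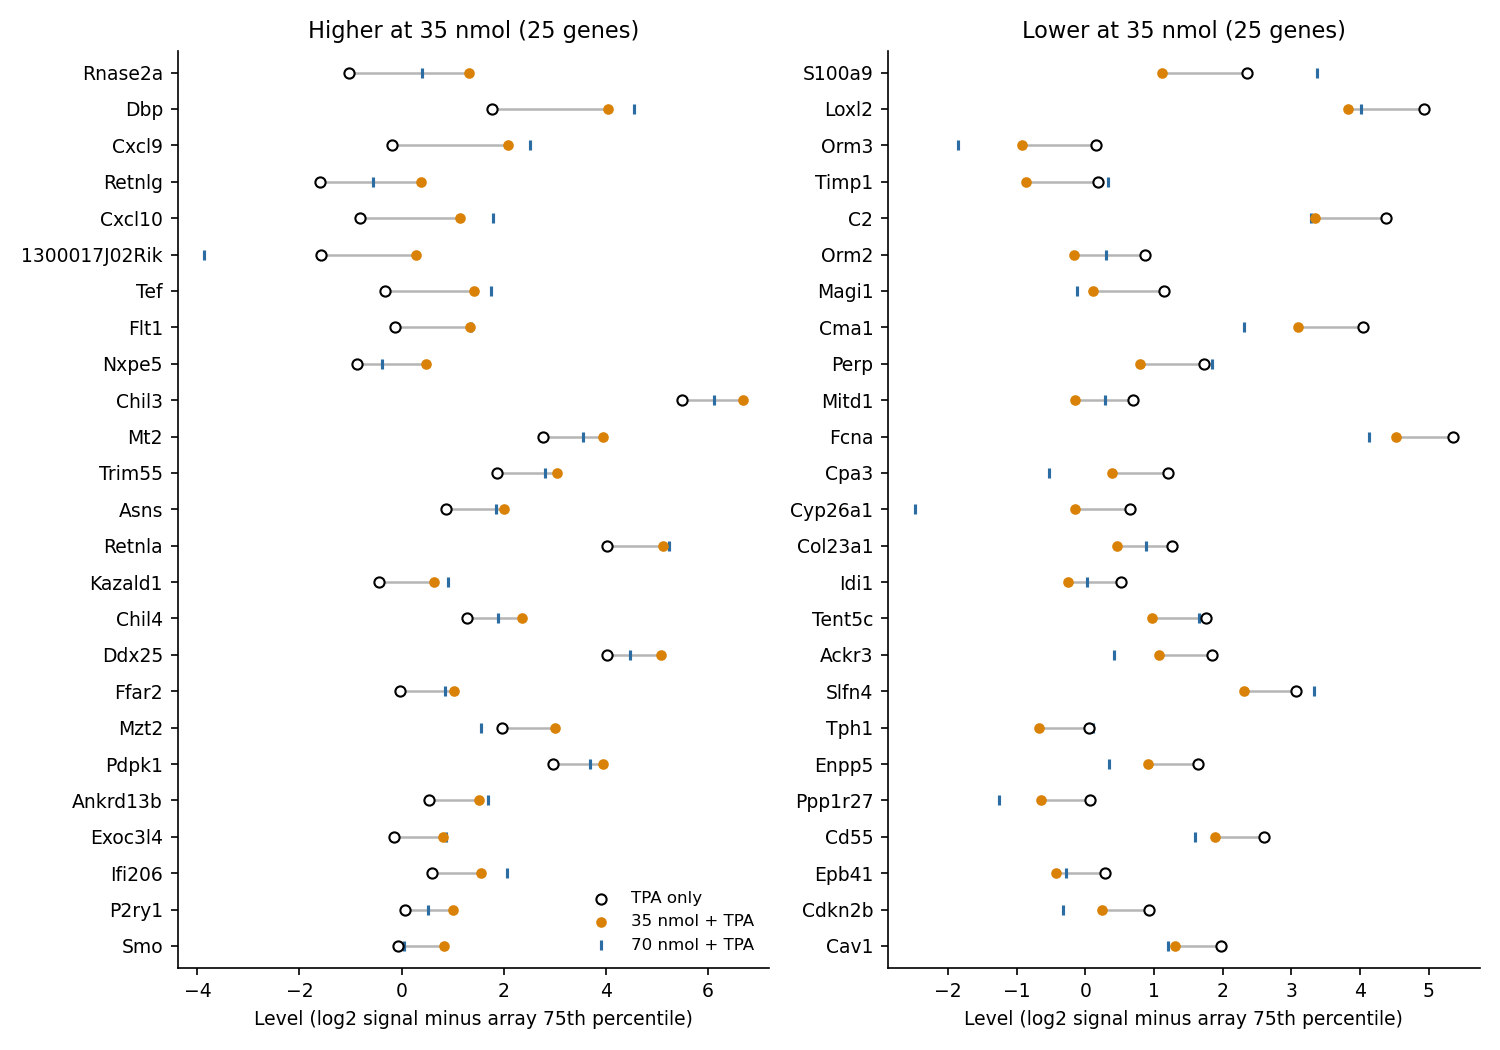
Levels of the 25 genes with the widest difference in each direction outside the liver and red cell lists, among genes whose brighter array was at or above the median level above background. Open circles are TPA only, orange circles 35 nmol with TPA, and blue ticks 70 nmol with TPA, on the log2 scale. The open and orange circles of Rnase2a, Dbp and Cxcl9 stand furthest apart among the higher genes, and those of S100a9 among the lower genes.

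Dbp, Tef and Nr1d1, 3 clock-controlled genes, stood well above the rest of their list. Dbp, an activator that binds D-box elements and whose transcript swings through the day, read 1.78 with TPA only, 4.06 at 35 nmol and 4.56 at 70 nmol, a 4.84-fold difference at 35 nmol with a scanner error of 0.20 on the log2 scale. Its probe lies at chr7:45577937-45577996 (build mm8, as all probe positions here). Tef, a related D-box activator, went from -0.33 to 1.42, and Nr1d1, the repressor REV-ERB alpha, from -1.69 to 0.09. All 3 were higher on both chromate arrays than on the TPA-only array, and all 3 stayed beyond 2-fold under every alternative run in which they were measured. In the same direction but within 2-fold were Nr1d2 (0.79), Cry2 (0.82) and Per1 (0.53), further parts of the repressing arm. Arntl, the activator BMAL1 which Nr1d1 represses, was lower by 0.67, and Nfil3, which competes for D-box elements, was lower by 0.51. Clock itself differed by -0.12. Over the 17 measured clock genes the median difference was 0.24, 6 members were higher by at least 0.5 and 2 lower, and 11 exceeded the median of all genes, as 50% of genes do by definition. The hour at which each group was sampled is not given in the labels.

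The promoter of Tef is shown because it alone of these 3 carries an E-box, the hexamer CACGTG that clock activators read. The 250 bases before the first of 2 annotated starts are given as transcribed, from RefSeq on GRCm38.p6, with the hexamer in capitals, 127 to 122 bases before the start.

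Tef, chr15:81802423-81802672, plus strand: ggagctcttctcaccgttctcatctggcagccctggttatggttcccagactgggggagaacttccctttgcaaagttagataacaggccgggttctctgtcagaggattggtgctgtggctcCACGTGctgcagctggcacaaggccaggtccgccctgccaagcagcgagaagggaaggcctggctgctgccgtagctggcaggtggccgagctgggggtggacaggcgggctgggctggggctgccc

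The hexamer occurs in 6.02% of 32851 windows of this length. The windows of Dbp and Nr1d1 held neither it nor the D-box letters TTATGNAA (3.07% of windows) on either strand. A match of letters describes the sequence and is not evidence of a site in use.

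Genes of the amino acid response, which the factor Atf4 switches on when amino acids run short or proteins misfold, included 4 of 26 that were at least 2-fold higher. Asns, asparagine synthetase, read 0.88 with TPA only, 2.01 at 35 nmol and 1.84 at 70 nmol. Chac1, which degrades glutathione, went from -2.10 to -0.65, Trib3, a pseudokinase that restrains Atf4, from -2.05 to -0.85, and Gdf15, a secreted stress factor, from -2.69 to -1.53. No measured member was lower by 2-fold. The glycine transporter Slc6a9 (0.72), Ddit4 (0.55) and Mthfd2 (0.51) followed, and 22 of 26 exceeded the all-gene median. The list's median was 0.31, and 7 members were higher by at least 0.5. Atf4 differed by 0.15 and Ddit3 by -0.02. With normexp none of the 4 kept 2-fold, Asns being at 0.92 and Chac1 at 0.84, and with spike-in scaling Chac1 alone of the 4 did. With the stricter filter 1 of 19 passed. Cebpg (-0.25), Nupr1 (-0.05) and Phgdh (-0.02) were the lowest of the list. The 20 aminoacyl-tRNA synthetases, many of which Atf4 also drives, had a median of 0.05 and none past 2-fold.

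**Figure D3:**
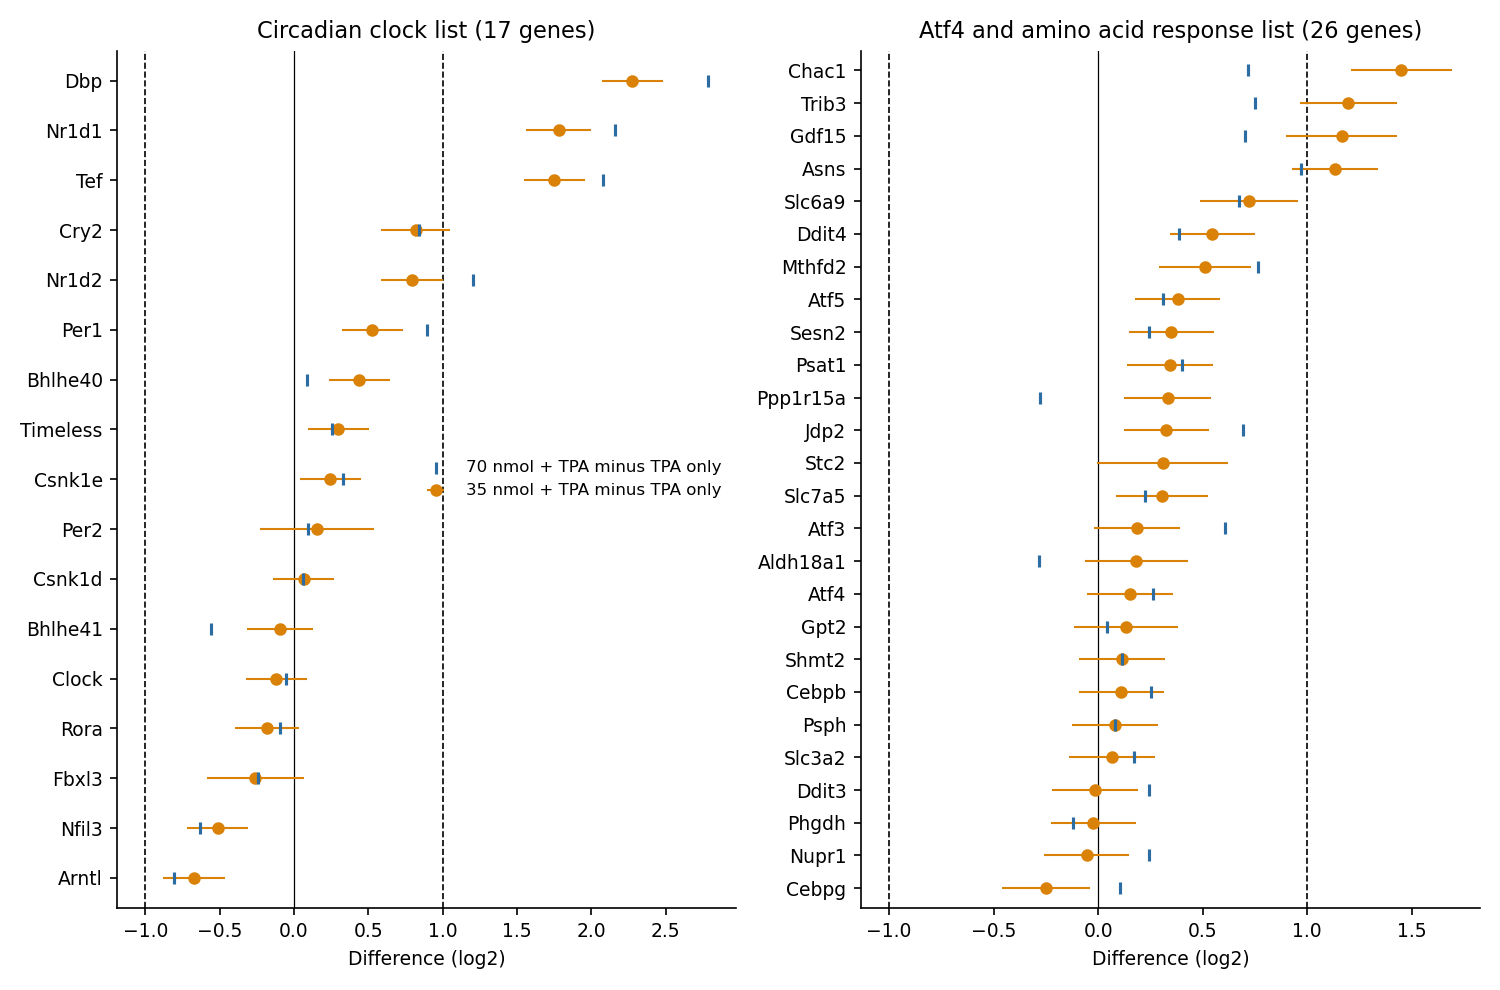
Log2 differences from the TPA-only array for the 17 measured clock genes (left) and 26 measured Atf4 and amino acid response genes (right). Orange points are 35 nmol with the scanner's error of the difference as bars, and blue ticks are 70 nmol where the probe was above background there. Dashed lines mark 2-fold. Dbp, Nr1d1 and Tef lie beyond the upper line on the left, and Chac1, Trib3, Gdf15 and Asns on the right.

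The promoters of Asns and Chac1 are shown because each holds the Atf4 element TGATGNAA, in capitals, once: in Asns as TGATGAAA 23 to 16 bases before the start, and in Chac1 on the other strand as TTGCATCA 193 to 186 bases before it. Both are 250 bases before the start as transcribed, from RefSeq on GRCm38.p6. The letters occur in 3.45% of all windows, and the windows of Trib3 and Gdf15 held none.

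Asns, chr6:7693210-7693459, minus strand: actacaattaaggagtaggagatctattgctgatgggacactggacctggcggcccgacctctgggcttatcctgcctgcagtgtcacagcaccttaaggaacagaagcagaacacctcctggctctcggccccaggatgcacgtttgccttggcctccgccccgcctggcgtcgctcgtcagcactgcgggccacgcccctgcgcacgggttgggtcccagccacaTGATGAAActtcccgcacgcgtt

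Chac1, chr2:119350992-119351241, plus strand: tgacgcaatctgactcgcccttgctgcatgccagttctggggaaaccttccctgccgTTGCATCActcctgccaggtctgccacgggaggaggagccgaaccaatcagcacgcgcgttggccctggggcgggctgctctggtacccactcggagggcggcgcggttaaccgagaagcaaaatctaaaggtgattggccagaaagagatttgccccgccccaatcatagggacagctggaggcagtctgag

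The chemokines that attract T cells through Cxcr3 were higher at 35 nmol. Cxcl9 read -0.19 with TPA only, 2.08 at 35 nmol and 2.51 at 70 nmol, a 4.80-fold difference at 35 nmol. Cxcl10 read -0.81, 1.15 and 1.80. Both remained beyond 2-fold under every alternative run. Among other chemokines, the dim Cx3cl1 lay just inside 2-fold at 1.00, and the monocyte attractants Ccl2 (0.85) and Ccl8 (0.72), the CC chemokine Ccl4 (0.71) and the eosinophil attractant Ccl24 (0.55) were higher by less. The neutrophil attractant Cxcl1 was lower by 0.65. The 19 measured chemokines had a median of 0.35, with 8 higher by at least 0.5 and 1 lower. Of 29 receptors for chemokines and other attractants Cxcr2 alone passed 2-fold, lower by 2.07. Cxcr3 differed by 0.25, Ccr2 by 0.18 and Ackr3, which takes up Cxcl12, by -0.77, and Ltb4r1, the receptor for the lipid leukotriene B4, by 0.86.

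The wider interferon response moved less than these 2 genes. Of 46 measured members only Cxcl9 and Cxcl10 passed 2-fold, and the median was 0.18 at 35 nmol beside 0.66 at 70 nmol. Socs1, a feedback inhibitor of cytokine signalling, was higher by 0.85, and the interferon-gamma-induced GTPases Iigp1, Gbp5 and Igtp by 0.70, 0.67 and 0.44. The type I antiviral genes Isg15 (0.18), Oas1a (-0.04), Mx1 (-0.18), Irf7 (-0.20) and Rsad2 (-0.42) showed no common direction. Ifng, the gene of interferon gamma, read -0.36 with TPA only, 0.07 at 35 nmol and -0.34 at 70 nmol.

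The Cxcl10 promoter is shown for its 2 matches, in capitals: the interferon-response letters (GAAA, any 2 bases, GAAA) as GAAAGTGAAA 213 to 204 bases before the start, and the NF-kB letters (GGGA, any 2 bases, TTCC) as GGGAAATTCC 159 to 150 bases before it. These occur in 2.98% and 1.21% of windows. The window of Cxcl9, the chemokine with the wider difference, held neither on either strand.

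Cxcl10, chr5:92348890-92349139, minus strand: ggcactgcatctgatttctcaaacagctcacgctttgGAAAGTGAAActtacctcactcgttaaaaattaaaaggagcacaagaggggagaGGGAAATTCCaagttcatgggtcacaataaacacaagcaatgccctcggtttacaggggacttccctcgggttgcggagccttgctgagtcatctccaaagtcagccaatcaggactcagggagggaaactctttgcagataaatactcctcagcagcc

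Genes of alternative macrophage activation, the programme that interleukin 4 induces, had the highest median of the 45 function lists, 0.37. Chil3, the chitinase-like protein Ym1, read 5.49 with TPA only, 6.68 at 35 nmol and 6.13 at 70 nmol. Retnla, a secreted resistin-like protein, read 4.02, 5.13 and 5.25, and its second probe differed by 1.04. Chil4, nearly identical to Chil3 in sequence, was higher by 1.08, and Flt1, a receptor for vascular growth factors, by 1.47. Flt1 is also on the endothelial marker list. Of the 9 measured endothelial markers 2 were at least 2-fold higher, beside 1.12% of all measured genes. Their median was 0.16, and 5 of the 9 exceeded the all-gene median. Below 2-fold, Ccl17 was higher by 0.88, the lectins Mgl2 and Clec10a by 0.81 and 0.70, and Arg1, arginase, by 0.73, from 3.38 to 4.11. Mrc1, the mannose receptor, differed by 0.42 and the interleukin 4 receptor chain Il4ra by 0.22. Of 28 members 22 exceeded the all-gene median and 12 were higher by at least 0.5. Pdcd1lg2, an inhibitory ligand for T cells, was the 1 member at least 2-fold lower, at -1.18. Spike-in scaling left only Flt1 of these higher by 2-fold or more, with normexp Chil4 and Pdcd1lg2 were within it, and with cyclic loess Retnla was. Il4 itself was a dim transcript that went from -2.71 to -1.14 and was within 2-fold with normexp. Eosinophils also make some of these proteins. Their 8 measured markers, of 19, had a mean level of 0.80 with TPA only and 1.46 at 35 nmol. Prg2 and Epx were not above background, and the part of eosinophils in the result was not tested.

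Mt1 and Mt2 are metallothioneins, proteins that bind zinc and other metals and are induced through metal-response elements. Mt2 read 2.76 with TPA only, 3.94 at 35 nmol and 3.56 at 70 nmol, and Mt1 read 3.82, 4.32 and 3.96. Mt2 was 2.27-fold higher and Mt1 1.42-fold. The zinc exporter Slc30a1, which the same elements control, was higher by 0.57, though its second probe differed by 0.08. The median over 15 metallothionein and zinc transport genes was 0.01. With spike-in scaling Mt2 was within 2-fold. The Mt2 promoter, 250 bases before the start, is shown with the metal-response letters TGCGCNC in capitals, here TGCGCTC 128 to 122 bases before the start. Those letters occur in 12.5% of all windows and in 24.4% of the measured genes with a window, and the window of Mt1 held none. Only this spelling was searched for, so other forms of the element in either gene were not looked for.

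Mt2, chr8:94172368-94172617, plus strand: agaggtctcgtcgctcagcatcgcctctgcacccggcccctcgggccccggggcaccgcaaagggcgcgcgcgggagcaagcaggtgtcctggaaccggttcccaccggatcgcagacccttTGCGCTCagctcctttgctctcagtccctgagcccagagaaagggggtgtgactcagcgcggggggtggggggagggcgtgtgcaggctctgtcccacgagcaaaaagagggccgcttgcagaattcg

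Of the 87 higher genes 68 had a promoter window. Among these, 20.6% held the ROR element AGGTCA, which Nr1d1 also binds, beside 13.4% of 9127 measured genes with a window. For the E-box the shares were 11.8% and 9.97%, for the Atf4 letters 5.88% and 2.44%, and for the interferon-response letters 7.35% and 3.18%. The metal-response letters ran the other way, with 17.6% and 24.4%. Among the 33 lower genes 20 had a window, and 30% of these (6 genes) held the ROR element, so that element was not more frequent in the higher genes than in the lower. The shares among the higher genes rest on between 4 and 14 genes each and are given without a test.

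Several surface receptors and enzymes were higher but dim. Which cells they came from was not tested, and Stab2 is also on the endothelial marker list. Olr1, a receptor for oxidised lipoprotein, went from -2.32 to -1.19, and Stab2, a receptor for hyaluronan and dying cells, from -3.32 to -2.23, as the 2 of 23 Fc and scavenger receptors past 2-fold. Their neighbours in that list were brighter and within 2-fold: Fcgr2b, the inhibitory IgG receptor, was higher by 0.69, Clec4n, the fungal receptor dectin-2, by 0.69 and Stab1 by 0.61. Among 26 adhesion genes Itga1, a collagen-binding integrin, was higher by 1.04 and Vcam1, a ligand for leukocyte integrins, by 1.01. Aldh1a1, which makes retinoic acid, was higher by 1.13, opposite to Cyp26a1, which degrades it. Slc40a1, the iron exporter ferroportin, was higher by 1.22 and Hpgd, which inactivates prostaglandins, by 1.54. With normexp none of Olr1, Stab2, Itga1, Vcam1, Aldh1a1, Slc40a1 and Hpgd passed 2-fold.

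Several of the brighter genes were higher without a group around them. Trim55, a muscle ubiquitin ligase, went from 1.87 to 3.05, Ddx25, a helicase best known from germ cells, from 4.02 to 5.09, and Mzt2, a component of the microtubule-nucleating ring, from 1.96 to 3.0. Mzt2 read 1.56 at 70 nmol, below the control. Ffar2, the receptor for short-chain fatty acids, was higher by 1.05, the ADP receptor P2ry1 by 0.94 and the Hedgehog transducer Smo by 0.89. Pdpk1, a kinase upstream of Akt, was higher by 0.98 on its brightest probe, while its other probes differed by 0.10 and 0.14, so that value belongs to 1 probe and not to the gene. Ifi206, an interferon-inducible DNA sensor family member, was higher by 0.96 and by 1.09 on its second probe. Normexp and spike-in scaling each put Ffar2, Kazald1, Ddx25 and Mzt2 within 2-fold. Quantile scaling did so for Ddx25 and Mzt2, cyclic loess for Ddx25, and spike-in scaling for Trim55.

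Outside the liver and red cell lists fewer genes were lower at 35 nmol than higher, 33 beside 87. This did not hold with spike-in scaling (244 lower and 30 higher) or with the looser filter (538 and 492). S100a9, a calcium-binding protein of neutrophils and monocytes, read 2.36 with TPA only, 1.11 at 35 nmol and 3.37 at 70 nmol, so it was lowest at the lower dose. S100a8, whose protein pairs with it, differed by only 0.11. Lcn2, an iron-scavenging protein of neutrophil granules and stressed epithelium, went from -0.69 to -2.15, and Cxcr2, the neutrophil chemokine receptor, from -0.93 to -3.0. The 3 orosomucoid genes Orm1, Orm2 and Orm3, acute phase proteins of close sequence, were lower by 1.06, 1.03 and 1.09, and they and Lcn2 are the 4 of 12 acute phase genes that passed 2-fold. Saa1 differed by 0.07, Hp by -0.16 and Serpina3g by 0.85, so the acute phase list, with a median of -0.20, had no common direction. With normexp none of its genes passed 2-fold, and Cxcr2 stood at -0.91.

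C2, a complement component cleaved in the classical pathway, went from 4.38 to 3.34, and its second probe was lower by 1.12. C2 and S100a9 kept 2-fold under every alternative run. Other complement genes on the lower side were Cd55, an inhibitor of complement on cell surfaces (-0.71), the complement receptor Cr2 (-0.75), and C1qb (-0.36), C1qc (-0.23) and C1qa (-0.22), the chains of C1q. The ficolin Fcna, which starts the lectin pathway, was not on the list and was lower by 0.83. Of 21 complement genes 15 were under the all-gene median, and Cfi, above, was the 1 that was higher by 2-fold. Timp1, an inhibitor of matrix proteases, went from 0.18 to -0.86 and read 0.33 at 70 nmol. Loxl2, a collagen crosslinking enzyme, went from 4.93 to 3.83 on its brightest probe, while its second probe differed by -0.13, and averaged over probes it was lower by 0.61. Fads1, a fatty acid desaturase, was lower by 1.5 and Idi1, of the sterol pathway, by 0.78, although 22 of 30 genes of sterol and fatty acid synthesis exceeded the all-gene median. With normexp Fads1 was lower by 0.77 and Timp1 by 0.75, both within 2-fold. Cyp26a1, which breaks down retinoic acid, was lower by 0.80, and Cdkn2b, a cell cycle inhibitor, by 0.68. Perp, a p53 target, was lower by 0.94 at 35 nmol and read 1.84 at 70 nmol beside 1.73 with TPA only.

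**Figure D4:**
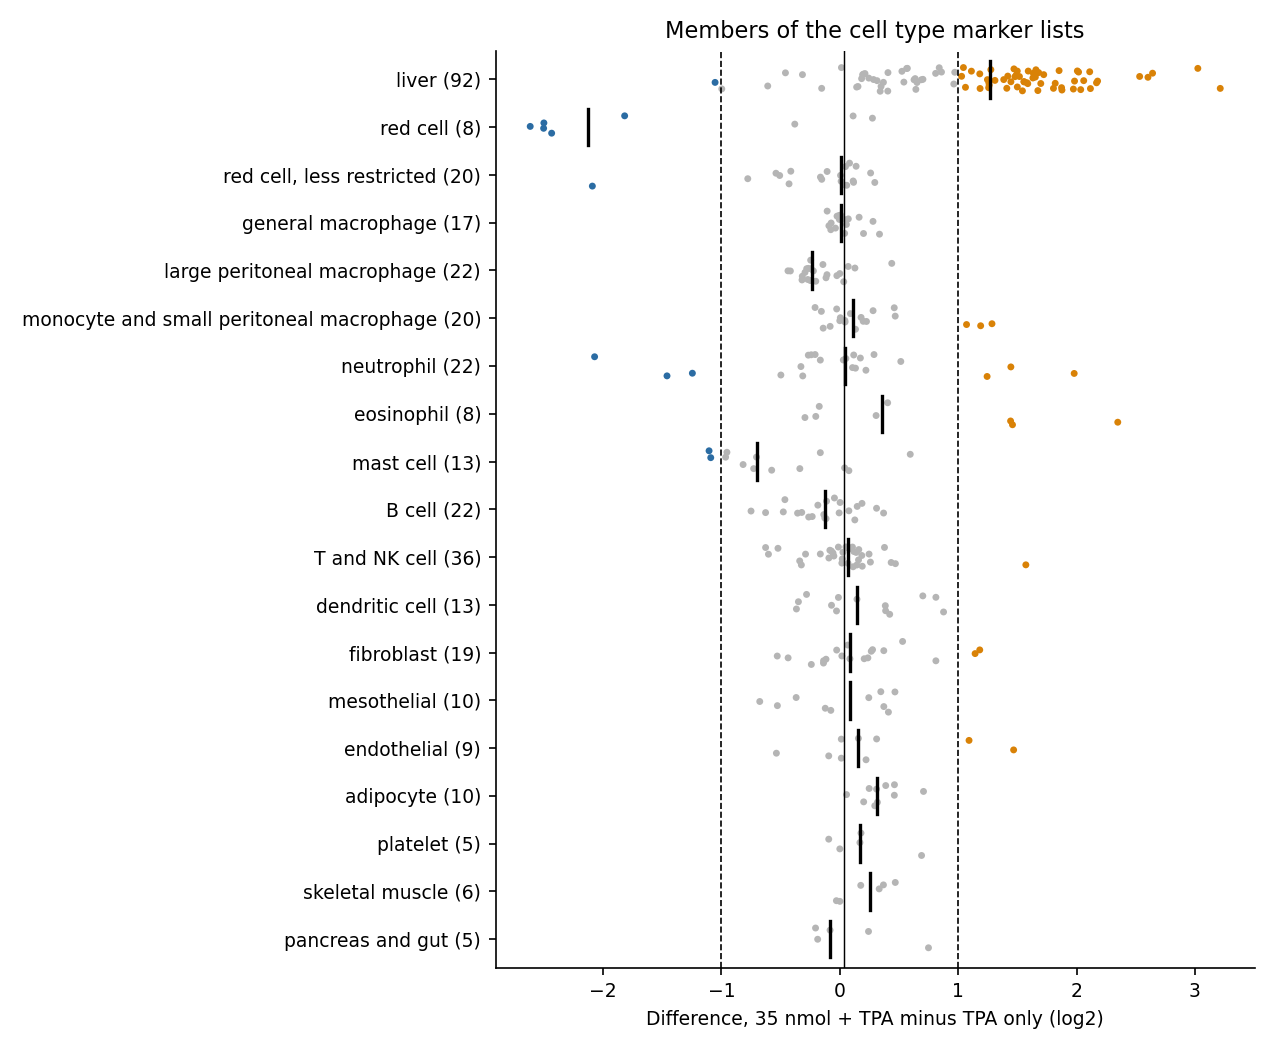
Log2 differences, 35 nmol with TPA minus TPA only, for each measured member of the 19 cell type marker lists (number measured in brackets). Black bars are list medians, the thin line is the median of all genes, dashed lines mark 2-fold, and orange and blue points lie beyond it. Liver markers lie to the right, red cell and mast cell markers to the left, and general macrophage markers close to the line.

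Markers of macrophages in general scarcely differed: 17 were measured below saturation, none passed 2-fold, and the median was 0.01. Those of large resident peritoneal macrophages were slightly lower as a group, with 19 of 22 below the median of all genes and a median of -0.23. Gata6, which maintains these cells, read 3.76 with TPA only, 3.48 at 35 nmol and 2.68 at 70 nmol, with other probes at -0.35 and 0.43, and Timd4, a receptor for dying cells, was lower by 0.32. Nt5e and Serpinb2 were lower by 0.44 and 0.42, and Bhlhe40 was the highest of the list at 0.44. None of these 22 passed 2-fold. The list's mean level was 4.94, 4.79 and 4.39 on the 3 arrays. Of 20 monocyte and small macrophage markers, Vcan, Chil3 and Fcrls passed 2-fold upwards, while Ccr2 (0.18), Ly6c1 (0.00) and Plac8 (0.28) did not, and the median was 0.11.

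Eosinophil markers were mixed. Rnase2a, an eosinophil-associated ribonuclease, had the widest difference of any gene in the plot of named genes, from -1.02 to 1.32, and read 0.40 at 70 nmol. Ear1, of the same family, was higher by 1.46 and Siglecf, a surface lectin of eosinophils, by 1.44, both near background. The receptors Ccr3 and Il5ra differed by 0.40 and -0.29. Of the 19 markers 8, 10 and 8 were above background on the 3 arrays and 9 were on none, among them the granule protein genes Prg2, Prg3 and Epx. The mean level of the 8 measured members of the list was 0.80, 1.46 and 0.85 on the 3 arrays. With normexp only Rnase2a passed 2-fold. Genes of the eosinophil ribonuclease family are close in sequence, so a probe may read more than 1 of them. Mast cell markers lay on the other side, with a median of -0.70 and 8 of 13 lower by at least 0.5. The proteases Cma1, Cpa3, Mcpt4 and Tpsb2 were lower by 0.95, 0.82, 0.57 and 1.1, and the IgE receptor chain Fcer1a by 1.09. Cma1 read 4.05 with TPA only, 3.09 at 35 nmol and 2.31 at 70 nmol. The mean level of the mast cell list was 0.90, 0.39 and 0.01 on the 3 arrays. Its shift against all genes, -0.74, was -0.33 with normexp.

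Neutrophil markers split, with 3 of 22 at least 2-fold higher and 3 lower. Retnlg went from -1.59 to 0.39, Wfdc21 from -1.33 to 0.11 and Ctsg, cathepsin G, from -1.98 to -0.74, against the lower S100a9, Lcn2 and Cxcr2. The median was 0.04 and the list's mean level 0.94, 0.92 and 1.08. B cell markers had a median of -0.12 with Ms4a1 at -0.11, and T and NK cell markers 0.07 with Cd3d at 0.07 and Cd8a at 0.19. Fibroblast markers, which were much higher at 70 nmol (mean level 0.03, 0.21 and 0.97), had 2 of 19 at least 2-fold higher at 35 nmol and 4 higher by at least 0.5, with a median of 0.09. Serpinf1, a secreted inhibitor of vessel growth, was higher by 1.18 and Bgn, a matrix proteoglycan, by 1.14, both within 2-fold with normexp and with spike-in scaling. The collagens Col1a1 and Col3a1 differed by -0.12 and 0.24. All 10 measured adipocyte markers were above the median of all genes, led by Fabp4 (0.71), and none passed 2-fold. With normexp, quantile or cyclic loess 9 of the 10 were. Of the 19 genes in this list 7 were above background on no array. Fabp4, Cd36, Lpl and Pparg are also on the list of lipid uptake genes, so they are not particular to fat cells.

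**Figure D5:**
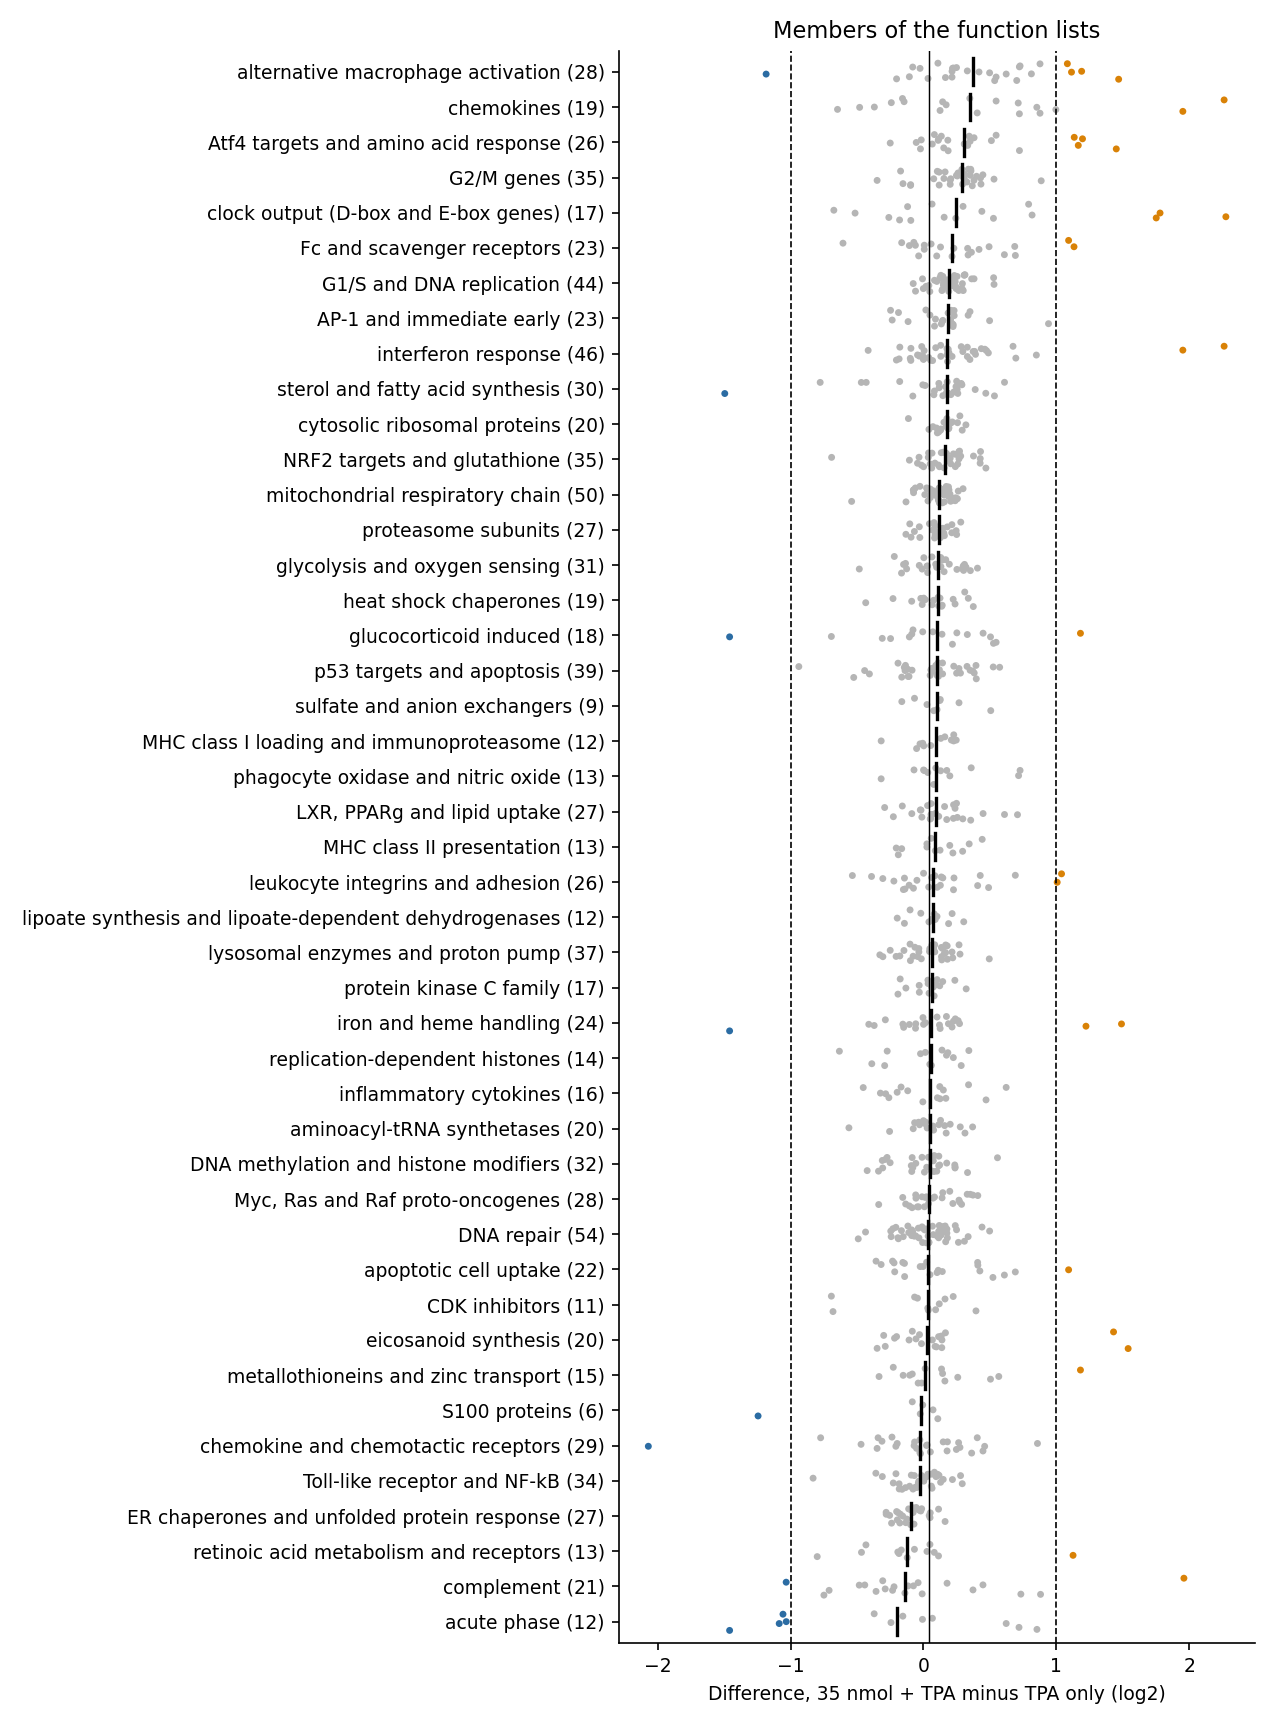
Log2 differences, 35 nmol with TPA minus TPA only, for each measured member of the 45 function lists, ordered by list median (number measured in brackets). Marks are as in the plot of marker lists. Alternative activation, chemokine, Atf4 and G2/M lists stand at the top, and complement and acute phase at the bottom.

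The cell division genes differed by small amounts in a shared direction. Of 35 measured G2/M genes, which build the spindle and divide the cell, 30 exceeded the all-gene median and none passed 2-fold, with a median of 0.29. Mki67 was higher by 0.31, Birc5 by 0.37, Cdc20 by 0.43 and Kif11 by 0.89. Of 44 replication genes 38 exceeded it, with a median of 0.20, among them Mcm6 (0.31), Tk1 (0.31) and Pcna (0.13). Both medians were 0.03 at 70 nmol. Apart from that of Kif11, a dim gene, the differences named lay between 0.13 and 0.43, beside a median scanner error of 0.20. Their shift against all genes ranged from 0.17 to 0.26 for G2/M and from 0.11 to 0.17 for replication over the alternatives. Endoplasmic reticulum chaperones leaned the other way, with 22 of 27 below the median of all genes and a median of -0.10. Hspa5, the master chaperone BiP, read 6.33 with TPA only and 6.04 at 35 nmol, and Pdia3, Creld2 and Pdia6 were lower by 0.28, 0.25 and 0.24.

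Genes that answer oxidants and DNA damage, the injuries chromate is known for, showed small differences 4 days after the dose. None of 35 measured NRF2 and glutathione genes passed 2-fold. Of all measured genes only 1.12% were higher and 0.307% lower by as much, so none is near that share for lists of this size. The 35 genes ranged from -0.69 to 0.47, 27 exceeded the all-gene median, and the list's median was 0.16. Hmox1, heme oxygenase, read 4.76 with TPA only, 5.03 at 35 nmol and 5.71 at 70 nmol. Srxn1, which repairs peroxiredoxins, was higher by 0.43 on its brightest probe but differed by -1.21 and -0.33 on others, and Txnrd1 was higher by 0.24. Nqo1 had no probe above background on any array. Of 39 p53 and apoptosis genes none passed 2-fold, and the median was 0.10. Cdkn1a, the p53-induced cell cycle inhibitor p21, read 2.38, 2.78 and 3.04 on the 3 arrays, Phlda3 was higher by 0.57 and Mdm2 by 0.23. Gadd45a differed by -0.19, and Perp was the lowest of the list at -0.94. In this list 2 members were higher by at least 0.5 and 2 were lower by as much. The 54 DNA repair genes had a median of 0.04, that of all genes, with the extremes Mutyh (0.50) and Rev1 (-0.49). Ogg1, which removes oxidised guanine, differed by -0.09.

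Inflammatory cytokine genes included none past 2-fold. The median over 16 was 0.05, with Tnf at 0.34 and Il1b at -0.26. Il6 read -1.11 with TPA only and -1.12 at 35 nmol. Il10 was not above background on either array. Of 34 Toll-like receptor and NF-kB genes none passed 2-fold, and the median was -0.02. Immediate early genes had a median of 0.19, with Jun at 0.23, Fos at 0.15 and Nr4a2 the widest at 0.94. The protein kinase C family, the targets of TPA, had a median of 0.06, and Myc, Ras and Raf proto-oncogenes 0.04, with Myc at 0.08. Genes of lipoate synthesis and of the lipoate-dependent dehydrogenases ranged from -0.20 to 0.30 around a median of 0.07. Of 20 ribosomal protein genes measured below saturation 19 exceeded the all-gene median, at a median of 0.17, but cyclic loess scaling turned this shift to -0.02.

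Some genes were above background on only 1 of the 2 arrays and have a bound in place of a difference. It sets the level on the brighter array against the lowest level called above background on the other. Where the probe's own level on that other array was higher, its own level was used. At 35 nmol only there were 337 genes, 128 of them at least 2-fold above that bound, and with TPA only there were 1114, of which 129 passed it. More probes were above background on the TPA-only array as a whole, 20200 beside 18907. The liver genes Ces3b, Adh1 and Cyp2e1 were at least 12.7-fold, 7.90-fold and 7.48-fold higher at 35 nmol. Outside the liver list Akr1b7, an aldose reductase relative, was at least 10.2-fold higher, Plxna2, a semaphorin receptor, 7.16-fold and Trim67, a ubiquitin ligase relative, 6.83-fold. Ccl12, a monocyte attractant, was at least 3.38-fold higher and read -0.24 at 70 nmol, and the eosinophil ribonuclease Ear10 was at least 2.14-fold higher. On the other side Wdr72 was at least 9.34-fold lower, Atl1, which shapes the endoplasmic reticulum, 7.39-fold and Lrp8, a reelin receptor, 6.12-fold.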

How the data were processed

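RNA of peritoneal cells was labelled with Cy3 and hybridised to 1-colour Agilent arrays, 1 for each of the 3 groups. Spot intensities were extracted by the submitters with Agilent Feature Extraction, version 10.5.1.1 per the file headers, which also give probe positions on mm8. The deposited intensity used here is the processed signal, already background-subtracted by that program. The deposited table of log2 values equals log2 of that signal minus a constant (8.00, 7.61 and 7.67), within 0.01 for at least 99.8% of probes. It was used as an alternative, and how the constants were chosen is not given in the sources used here.

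From these files, control and outlier spots were dropped, spots of a probe were averaged, and each array was scaled on its 75th percentile (8.07, 7.69 and 7.74 on the log2 scale). A gene is its brightest probe, and was measured where that probe was well above background, unsaturated and no outlier on both arrays. Of 41174 probes 24496 were named through their accession, 6234 by symbol and 2386 by synonym; 8058 kept the file's name. With 1 array a group there is no test, a gene counts as different from 2-fold on, and only technical error is given: spots of a repeated probe had a median SD of 0.035 to 0.045. The lowest level above background was -3.65 with TPA only and -3.40 at 35 nmol. The counting step was tested on simulated data.

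Genes were named by rank: the 25 widest differences each way outside the liver and red cell lists, the widest members of each list, the widest bounds, and 24 genes always given. Some items are not reported here. Further list members are named for their role, chosen with their values known. The members and all 64 lists were chosen with earlier results of these data known. Alternatives were normexp with an offset of 50, quantile, cyclic loess, median and spike-in scaling (4 of 10 spike-in probes), looser and stricter filters, the mean over probes, the deposited table, and thresholds of 1.5-fold and 3-fold. Promoters came from RefSeq, and 8 motifs were searched on both strands; none of the matches printed overlaps another. The software comprised R 4.3.3 (limma 3.58.1) and Python 3.11.15, the latter with the packages pandas 2.3.3, matplotlib 3.10.9 and numpy 2.4.6.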

Additional observations from a re-analysis of the deposited data

How the results depend on the processing

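The limit of these results is 1 array per group: leaving out a replicate is impossible, no spread between animals can be had, and dim genes depend on the background correction. No paired analysis was possible because each group has 1 array. The counts of genes at least 2-fold higher and lower were 143 and 39, and 87 and 33 outside the liver and red cell lists. They were 55 and 10, and 22 and 5, with normexp. They were 72 and 252, and 30 and 244, with spike-in scaling. The looser filter gave 583 and 545, and 492 and 538. The stricter filter gave 42 and 13, and 24 and 8. A threshold of 1.5-fold gave 378 and 246, and 311 and 238, and one of 3-fold gave 51 and 12, and 21 and 7. Quantile, cyclic loess and median scaling, the mean over probes and the deposited table left these counts within 1.5 times of the first. So did an alternative chosen after seeing the data, without further liver genes (72 higher outside the lists).

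No named gene at least 2-fold different changed sign under the alternatives run. List medians were read against all genes. Of 64 lists 28 changed sign under at least 1 alternative. In 24 of them the shift was under 0.11, the SD between probes, and after the change it lay between -0.17 (mesothelial markers, stricter filter) and 0.09 (metallothioneins, stricter filter). The 4 others were endothelial markers (-0.011 with the mean over probes), pancreas and gut markers (0.090 with normexp, 0.0078 with cyclic loess and 0.24 with the looser filter), and with cyclic loess platelet markers (-0.0034) and ribosomal proteins (-0.020). The cause was not tested.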
